A study of Mus musculus with 6 samples.

Results

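The genes described here are 9 members of the machinery by which cartilage cells take up, release and sense water and load: the cotransporter genes *Slc12a2* and *Slc12a4*, the water channel genes *Aqp1* and *Aqp3*, the volume-regulated anion channel genes *Lrrc8a* and *Lrrc8d*, and the mechanosensitive channel genes *Trpv4*, *Piezo1* and *Piezo2*. The list was drawn up by symbol with earlier results of these data known, and its rule uses no measured value. They are 9 of the 47729 genes in the table. RNAseq was carried out on the proximal tibial epiphysis of 3 Control and 3 Longshanks mice at 14 days of age, with the paired epiphyses of each mouse pooled into 1 library. Control mice were random-bred and of the ICR strain label, and the Longshanks mice came from the line LS1, 1 selected line that was bred for long tibiae relative to body mass. The mice of both groups belonged to different families of generation F13 and the labels give no treatment for either. The sampled piece contained growth plate, metaphysis, articular cartilage and the secondary ossification centre, and the labels name bone, cartilage and marrow as the tissue.

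Growth plate chondrocytes enlarge many times over as they become hypertrophic, and part of this enlargement is swelling by uptake of ions and water. *Slc12a2* encodes NKCC1, which carries sodium, potassium and chloride into the cell, while *Slc12a4* encodes KCC1, which carries potassium and chloride out. Water follows through aquaporins, LRRC8 channels release chloride and organic osmolytes from a swollen cell, and TRPV4 and the PIEZO proteins admit cations when the cell is stretched, compressed or osmotically challenged. Mutations of *TRPV4* in people cause skeletal dysplasias. None of these proteins is restricted to cartilage, and AQP1 in particular is abundant in the red cell membrane and in vessel endothelium.

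The libraries held 68803249 to 76581954 reads in Control and 82227711 to 88745366 reads in LS1, and the shallowest LS1 library was deeper than the deepest Control library. LS1 replicate 3 stood apart from its group on the first principal component (35.1% of the variance), at -4.29, between the Control libraries (-41.5 to -22.1) and the other LS1 libraries (43.7 and 50.1). The tissue label was checked against marker genes. All 13 chondrocyte markers (such as *Col2a1*, *Acan* and *Matn1*) were expressed, with a summed normalized count of 2615198 to 2973189 in Control and 3327654 to 3847663 in LS1, and 11 matched erythroid markers, 7 endothelial markers and 7 osteoblast and osteocyte markers were expressed too. The values below are therefore averages over cartilage, bone, vessel and marrow cells, in which fewer cells of a type and less RNA per cell cannot be told apart.

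Across the 9 genes, 8 passed the filter of a mean of at least 20 reads and were tested with limma on the scale of log2(normalized count + 1). None of the 8 had an adjusted p under 0.05, beside 0.0725% of the 19308 genes tested (14 genes). The edgeR and DESeq2 tests called 0 of the 8 as well, beside 0.0363% and 2.36% of all genes. At an unadjusted p under 0.05 there were 2 of the 8 with each of these tools, *Aqp1* lower and *Slc12a2* higher in LS1, where the share over all genes was 12.9% with limma (7.08% higher and 5.86% lower in LS1), 13.2% with edgeR and 13.9% with DESeq2. The same 2 genes were those whose Control and LS1 libraries did not overlap, a pattern found in 19.2% of all genes tested (LS1 above Control in 10.3% and below in 8.94%). With 8 genes, 2 such genes are close to what the background share gives. The count of 14 genes depended on single libraries, being 324 without LS1 replicate 3, 46 without LS1 replicate 1, 5 without Control replicate 2 and 9 without Control replicate 1, while the count among the 8 genes was 0 without any one library.

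**Figure D1:**
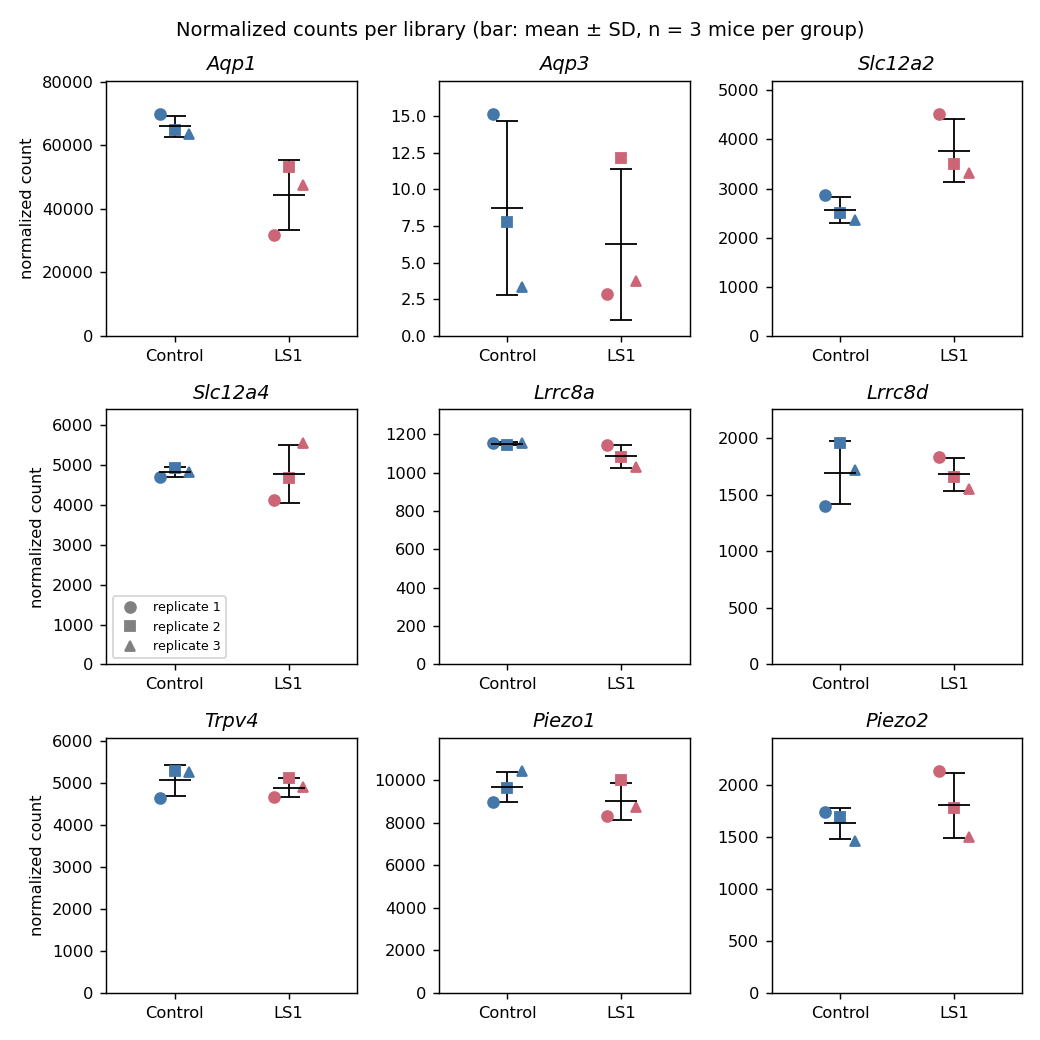
Normalized count (read count divided by the size factor of the library, y axis from 0) of the 9 genes in each of 6 libraries, with the mean and SD of the 3 mice per group as bars and marker shapes for the replicate. The 3 LS1 points lie below all Control points for *Aqp1* and above all Control points for *Slc12a2*, and the groups overlap in the other 7 panels.

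*Aqp1*, which encodes the water channel aquaporin 1, lies at chr6:55336432-55348555 on the plus strand of GRCm38 and shares no bases with another annotated gene. It is shown with the sequence upstream of its start because it was the most abundant of the 9 genes and one of those whose groups did not overlap, and *Piezo1* (chr8:122481698-122551329, minus strand) is shown beside it as an abundant member whose groups overlapped. The sequences are the 250 bases before the RefSeq transcription start in build GRCm38.p6, 5′ to 3′ on the strand of the gene, at chr6:55336049-55336298 for *Aqp1* and chr8:122551330-122551579 for *Piezo1*. Capitals mark the CACCC box, the letters CACCC on either strand (GGGTG when read on the other strand), to which KLF and SP factors bind.
Aqp1: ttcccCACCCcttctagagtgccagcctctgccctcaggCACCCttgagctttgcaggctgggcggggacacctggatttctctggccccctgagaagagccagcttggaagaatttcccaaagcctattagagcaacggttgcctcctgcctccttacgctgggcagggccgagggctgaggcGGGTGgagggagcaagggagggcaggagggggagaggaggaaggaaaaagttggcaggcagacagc
Piezo1: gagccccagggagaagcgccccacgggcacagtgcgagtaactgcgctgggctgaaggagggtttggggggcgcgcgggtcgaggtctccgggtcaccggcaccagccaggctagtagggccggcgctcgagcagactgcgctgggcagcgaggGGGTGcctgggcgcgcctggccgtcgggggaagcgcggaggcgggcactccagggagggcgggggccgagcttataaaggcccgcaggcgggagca
The *Aqp1* stretch held 3 CACCC boxes and the *Piezo1* stretch 1, and 52.0% of 32851 RefSeq promoters held at least 1 in the same window. Among the other members in this set the count was 5 for *Trpv4*, 4 for *Aqp3*, 2 each for *Slc12a4* and *Lrrc8a*, and 2 and 4 at the 2 starts of *Lrrc8d*, so the count did not single out *Aqp1*. The GC box GGGCGG was found 1 time in each stretch and in 32.7% of all promoters, on either strand. Neither stretch held a GATA motif (AGATAA on either strand), which 3281 of these promoters held, and the TATAAA motif was found in the *Piezo1* stretch and in 12.4% of promoters. The *Aqp1* stretch had 5 CG dinucleotides, beside 26 for *Piezo1* and a median of 6 over all promoters. The RefSeq start of *Aqp1* lies upstream of the annotated start used for its coordinates here, and neither stretch was measured by RNAseq.

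*Aqp1* had 69722, 64698 and 63414 normalized counts in Control and 31912, 53287 and 47509 in LS1. The groups did not overlap, and LS1 replicate 1 was the lowest library. With 3 mice per group, the mean ± SD was 65944 ± 3334 for Control and 44236 ± 11057 for LS1, which had 67.1% of the Control level. On the log2 scale the difference was -0.61 (SE 0.18, 95% interval -1.01 to -0.21), with an unadjusted p of 0.0062 and an adjusted p of 0.247 in limma. The adjusted p was 0.253 with edgeR and 0.0753 with DESeq2, and it lay between 0.0753 and 0.526 over all 17 alternatives. Without LS1 replicate 1 the difference was -0.39, and without LS1 replicate 2 it was -0.76. Both estimates are lower in LS1, and LS1 replicate 1 set much of the size. Between mice of a group, *Aqp1* varied by 5.06% in Control and 25% in LS1 as a coefficient of variation, against 0.426% from read counting alone.

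Markers of some other cell types in the sample were, like *Aqp1*, lower in LS1 as group means. All 11 tested erythroid markers had a lower estimate in LS1 (median log2 difference -0.52), and 2 of them, the globin genes *Hba-a2* and *Hbb-bs*, fell at an adjusted p of 0.0291 and 0.0408 in limma. DESeq2 also called these 2 markers and edgeR called 0 of the 11. In limma 4 of the 11 had an unadjusted p under 0.05, and 3 of the 11 did not overlap between groups. Summed, the erythroid markers reached 1744314 to 2281152 normalized counts in Control but 933900 to 1146471 in LS1, without overlap. *Hbb-bs* made up most of the sum (Control mean 1165568 of 1949527). The log2 ratio of *Aqp1* to this sum overlapped between the groups, at -5.03 to -4.75 in Control and -4.87 to -4.41 in LS1, and its mean was 0.25 higher in LS1. The 7 endothelial markers (among them *Pecam1*, *Cdh5* and *Kdr*) had a median log2 difference of 0.093 and summed to 34865 to 36608 in Control and 33859 to 39376 in LS1, with overlap. The log2 ratio of *Aqp1* to the endothelial sum ran from 0.79 to 1.00 across the Control libraries but from -0.19 to 0.65 across LS1, without overlap. Marker sums of B cells were also lower without overlap in LS1 (27617 to 42977 beside 44769 to 47735), and those of megakaryocytes and skeletal muscle had lower means in LS1 but overlapped. The ratio of *Aqp1* to these sums overlapped too, with mean differences of -0.17 (B cells), -0.10 (megakaryocytes) and 0.12 (skeletal muscle). It also overlapped for the osteoblast and osteocyte sum (-0.46) and the adipocyte sum (-0.74). For the remaining marker sums it was lower in LS1 without overlap. No marker of the erythroid, endothelial, B cell, megakaryocyte or muscle lists was at 0 in every library. The part of these cell types in the *Aqp1* values was not tested.

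**Figure D2:**
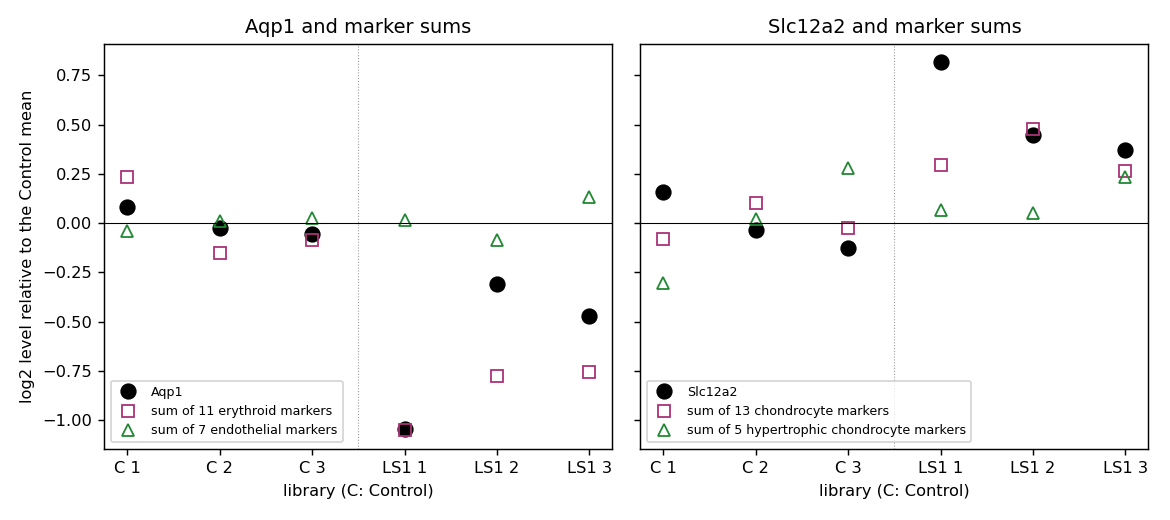
Log2 level relative to the Control mean (y axis) in each of 6 libraries (x axis, C for Control) for *Aqp1* with the erythroid and endothelial marker sums (left) and for *Slc12a2* with the chondrocyte and hypertrophic chondrocyte marker sums (right). *Aqp1* and the erythroid sum are both lower in all 3 LS1 libraries while the endothelial sum overlaps, and *Slc12a2* and the chondrocyte sum are both higher in all 3.

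*Aqp3*, which encodes an aquaporin that passes glycerol as well as water and lies at chr4:41092722-41098183 on the minus strand, was measured with few reads. It had 15, 7 and 3 reads in Control and 3, 14 and 4 reads in LS1, a mean of 7.67 reads, and was not tested. The groups overlapped. Read counting alone gives a coefficient of variation of 36.1% at this level, and the mice varied by 68.3% in Control and 82.3% in LS1. Per kb of exon, *Aqp1* had a Control mean of 25103 normalized counts and *Aqp3* of 4.78. Among the 6 aquaporins compared per length, *Aqp1* held 98.2% ± 0.315 (SD, n = 3) of the summed level in Control and 97.7% ± 0.446 in LS1, with overlap. *Aqp9*, a glycerol and solute channel of leukocytes and liver, was next with 1.58% in Control and 2.04% in LS1.

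*Slc12a2*, on chromosome 18, had 2860, 2500 and 2350 normalized counts in Control and 4511, 3492 and 3316 in LS1. The groups did not overlap, and replicate 1 was the highest library of its group in both. With 3 mice per group, the mean ± SD was 2570 ± 262 for Control and 3773 ± 645 for LS1, a 1.47-fold higher level. The log2 difference was 0.55 (SE 0.16, 95% interval 0.20 to 0.89), with an unadjusted p of 0.0052 and an adjusted p of 0.236 in limma. The adjusted p ranged from 0.0745 with DESeq2 to 0.532 without Control replicate 2 over the 17 alternatives, and the difference ranged from 0.41 without LS1 replicate 1 to 0.63 without LS1 replicate 3. The gene did not pass the threshold under any of them.

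Most chondrocyte markers, like *Slc12a2*, were higher in LS1 as group means, but the marker sum did not rank single libraries as *Slc12a2* did. Control replicate 1 had the highest *Slc12a2* level of its group and the lowest chondrocyte sum (2615198). In LS1, replicate 1 had the highest *Slc12a2* level and replicate 2 the highest sum (3847663). *Col2a1* weighs most in this sum (Control mean 1481072 of 2769619). The median of the markers, each centred on its Control mean on the log2 scale, was highest in replicate 2 of both groups. Within Control this median was lowest in replicate 3 (-0.076). Single markers differed, as *Hapln1* ranked the libraries of each group as *Slc12a2* did and *Col2a1* did not. Of the 13 markers, 12 had a higher estimate in LS1, with a median log2 difference of 0.50. In limma 0 passed the adjusted threshold and 9 had an unadjusted p under 0.05. The summed level given above did not overlap between groups. DESeq2 called 6 of the 13 and edgeR 0, with 9 at an unadjusted p under 0.05 in both. The log2 ratio of *Slc12a2* to the chondrocyte sum ran from -10.2 to -9.84 in Control and overlapped with that in LS1 (-10.1 to -9.55), with a mean 0.20 higher in LS1. Overlap was also found for the hypertrophic chondrocyte (mean difference 0.43), macrophage (0.30), neutrophil (0.33), adipocyte (0.41), osteoclast (0.56) and skeletal muscle (1.27) sums. For the remaining marker sums this ratio was higher in LS1 without overlap. Of the 5 hypertrophic chondrocyte markers (*Col10a1*, *Ihh*, *Mmp13*, *Panx3* and *Alpl*), 4 had a higher estimate in LS1 (median difference 0.34). In limma 0 passed the adjusted threshold, and *Col10a1* (0.61) and *Panx3* (0.47) had an unadjusted p under 0.05, both without overlap. DESeq2 called *Col10a1* and edgeR called 0. *Mmp13*, with the highest Control mean of the 5 (522349), had a lower estimate (-0.37). The sum of the 5, 731048 to 1094977 in Control and 933317 to 1061310 in LS1, overlapped. Markers of other cells had higher estimates too, 7 of 7 for macrophages (median 0.28, 0 past the adjusted threshold in limma and 1 at an unadjusted p under 0.05) and 6 of 7 for neutrophils (median 0.31, 0 and 2). By edgeR and DESeq2 0 markers of either list passed the adjusted threshold, and both marker sums overlapped between groups. The part of cell composition in the *Slc12a2* values was not tested.

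*Slc12a4* (chr8:105943590-105966097, minus strand) gave an estimate near 0. It had 4692, 4940 and 4838 normalized counts in Control and 4115, 4671 and 5562 in LS1, so that both the lowest and the highest library were LS1. The log2 difference was -0.023 (95% interval -0.33 to 0.29), which holds folds of LS1 over Control from 0.794 to 1.22. In Control the 3 mice differed little, with a coefficient of variation of 2.59%, beside 15.3% in LS1. The sign of the estimate turned without LS1 replicate 1 (0.080).

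Inward and outward carriers were also compared within libraries, where the size factor cancels. *Slc12a4* had 4.80 times the level of *Slc12a2* per kb of exon in Control and 3.24 times in LS1, as geometric means. The log2 ratio was 2.07, 2.33 and 2.39 in Control and 1.22, 1.77 and 2.10 in LS1, a difference of -0.57 (two-sided exact permutation p = 0.2, adjusted over 4 ratios 0.8), and LS1 replicate 3 lay within the Control range. With 3 mice against 3 the smallest p this test can give is 0.1.

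*Lrrc8a*, the subunit that every volume-regulated anion channel needs, lies at chr2:30237715-30263790 on the plus strand, and *Lrrc8d*, a subunit that lets the channel pass larger osmolytes such as taurine, at chr5:105699969-105832436 on the plus strand. *Lrrc8a* had 1155, 1143 and 1153 normalized counts in Control and 1144, 1081 and 1028 in LS1. Only LS1 replicate 1 reached the Control range. The log2 difference was -0.087 (95% interval -0.43 to 0.25). The 3 Control values were closer together (coefficient of variation 0.561%) than read counting alone gives (2.98%). *Lrrc8d* had 1402, 1960 and 1719 normalized counts in Control and 1835, 1660 and 1547 in LS1, so the Control libraries held both the lowest and the highest value. Its log2 difference was -0.0013 (95% interval -0.37 to 0.37), and its sign turned in 4 of the 17 alternatives. The intervals hold folds of LS1 over Control from 0.745 to 1.19 for *Lrrc8a* and from 0.774 to 1.29 for *Lrrc8d*.

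Per kb of exon, the log2 ratio of *Lrrc8d* to *Lrrc8a* was -1.27, -0.77 and -0.97 in Control and -0.86, -0.93 and -0.96 in LS1. The LS1 values lay inside the Control range, with a difference of 0.085 in the means (exact permutation p = 0.7, adjusted 0.9). *Lrrc8a* shares 2853 exon bases with the same-strand gene model *Gm28035*, which had 0 to 5.22 normalized counts, and only 1364 of its 4308 exon bases lie outside other gene models. How the authors' counting treated reads in shared exons is not given in the sources used here. Since *Gm28035* had at most 5.22 normalized counts, few reads can have been counted for both genes. Were no shared read counted, *Lrrc8a* would stand at 843 instead of 267 normalized counts per kb in Control. This would lie above *Lrrc8c* (407 on its merged length). The place of *Lrrc8a* among the subunits is thus uncertain, while its difference between groups does not use the length. Of the summed level of the 5 LRRC8 genes per kb of merged exon, *Lrrc8c* held 37.8% in Control, *Lrrc8a* 24.8%, *Lrrc8b* 22.4%, *Lrrc8d* 12.5% and *Lrrc8e* 2.43%. In LS1 these shares were 39.1%, 23.6%, 23.0%, 12.5% and 1.75%, and only that of *Lrrc8e* did not overlap between the groups.

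*Trpv4* (chr5:114622152-114658421, minus strand), which encodes a calcium-permeable channel opened by osmotic swelling, warmth and lipids, had 4644, 5285 and 5268 normalized counts in Control and 4660, 5118 and 4897 in LS1. All LS1 values lay inside the Control range. The log2 difference was -0.049 (95% interval -0.33 to 0.23), which holds folds of LS1 over Control from 0.798 to 1.17. Of the summed level per kb of the 6 TRPV genes, *Trpv4* held 71.7% ± 2.60 in Control and 73.6% ± 2.92 in LS1 (SD, n = 3 each), with overlap. *Trpv2* took most of the remainder (26.6% and 25.3%).

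*Piezo1* encodes a large channel opened directly by membrane tension. It had 8976, 9597 and 10408 normalized counts in Control and 8309, 9984 and 8721 in LS1. LS1 replicate 1 and LS1 replicate 3 lay below the Control range and LS1 replicate 2 inside it. The log2 difference was -0.10 (95% interval -0.39 to 0.18). *Piezo2*, on chromosome 18, encodes the paralog best known for touch and proprioception and had 1746, 1695 and 1463 normalized counts in Control and 2136, 1779 and 1505 in LS1. Here LS1 replicate 1 and LS1 replicate 2 lay above the Control range and LS1 replicate 3 inside it. The log2 difference was 0.13 (95% interval -0.24 to 0.51). The intervals hold folds of LS1 over Control from 0.764 to 1.13 for *Piezo1* and from 0.846 to 1.42 for *Piezo2*.

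**Figure D3:**
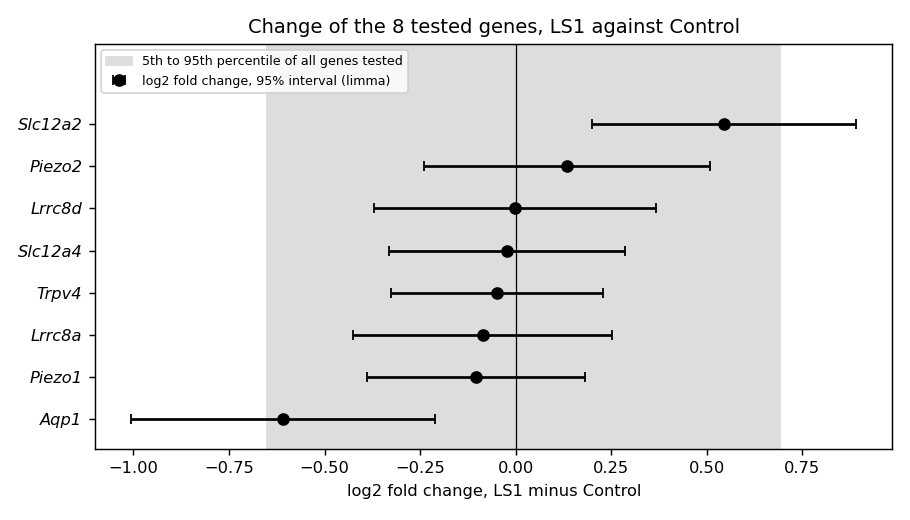
Log2 fold change of LS1 minus Control (x axis) of the 8 tested genes with 95% intervals from limma, on a grey band from the 5th to the 95th percentile of all 19308 genes tested (-0.65 to 0.69). The intervals of *Aqp1* and *Slc12a2* leave out 0 before adjustment, and those of the other 6 genes contain it.

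Within libraries, *Piezo1* had 10.2 times the level of *Piezo2* per kb in Control and 8.67 times in LS1. The log2 ratio of *Piezo2* to *Piezo1* was -3.15, -3.29 and -3.62 in Control and -2.75, -3.28 and -3.32 in LS1, a difference of 0.24 (exact permutation p = 0.5, adjusted 0.9). LS1 replicate 1 had the highest ratio, and the groups overlapped. *Piezo1* shares 2441 exon bases with the opposite-strand gene *Ctu2*, which had 522.8 to 955.1 normalized counts. The strand setting of the counting is not given in the sources used here, so reads of the 2 genes may be mixed there. The ratio of *Aqp3* to *Aqp1*, the fourth pair, differed by 0.16 (exact permutation p = 0.9, adjusted 0.9) and rests on the few reads of *Aqp3*.

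Ordered by their Control level in normalized counts per kb of exon, the genes were *Aqp1* (25103), *Trpv4* (1243), *Slc12a4* (1127), *Piezo1* (972), *Lrrc8a* (267), *Slc12a2* (235), *Lrrc8d* (135), *Piezo2* (95.2) and *Aqp3* (4.78). *Aqp1* stood at the 99.6th percentile of all genes tested, 20.2-fold above *Trpv4*, and did not overlap with it in any library. *Trpv4* and *Slc12a4* overlapped over the 6 libraries, as did *Slc12a4* and *Piezo1*, *Lrrc8a* and *Slc12a2*, and *Lrrc8d* and *Piezo2*. In Control alone only *Trpv4* and *Slc12a4* overlapped, so across mice their order does not exceed their spread. Within libraries, on the merged length, *Trpv4* lay above *Slc12a4* in all but LS1 replicate 3 (1201 beside 1300). *Lrrc8d* lay above *Piezo2* and *Slc12a4* above *Piezo1* within each of the 6 libraries. Per kb outside other gene models, however, *Slc12a4* and *Piezo1* stood at 1231 and 1289 in Control. On the merged length *Lrrc8a* lay above *Slc12a2* in Control (265 to 268 beside 215 to 262) but below it in LS1 (239 to 265 beside 304 to 413). Per kb outside other gene models, *Lrrc8a* lay above *Slc12a2* in both groups (843 beside 235 in Control, 795 beside 346 in LS1). *Piezo1* and *Lrrc8a* were separate by 3.64-fold in Control on the merged length, but this gap is uncertain, since per kb outside other gene models they stood at 1289 and 843. The other neighbours that were separate over the 6 libraries were *Slc12a2* and *Lrrc8d*, by 1.75-fold, and *Piezo2* and *Aqp3*, by 19.9-fold. The 8 tested genes ranged from the 31.7th percentile (*Piezo2*) upward. Exon length was the merged length over all annotated transcripts, which lowers the level of genes with long alternative ends.

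**Figure D4:**
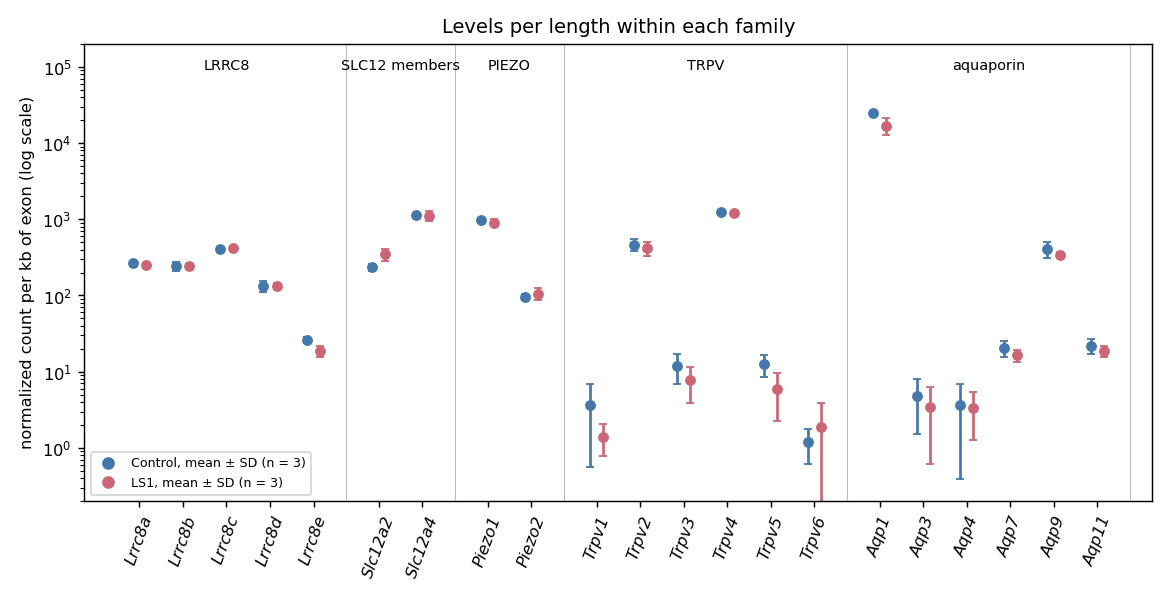
Normalized count per kb of merged exon (y axis, log scale) of the members, with paralogs for the LRRC8, TRPV and aquaporin genes,, as group mean with SD over 3 mice. *Aqp1*, *Trpv4* and *Piezo1* lead their families in both groups, *Slc12a4* lies above *Slc12a2*, *Lrrc8c* is above the other LRRC8 genes on this merged length (the place of *Lrrc8a* is uncertain because it shares exons), and a bar that runs to the lower edge (*Trpv6* in LS1) belongs to an SD larger than the mean.

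The other genes of these systems were described with 8 lists. Of 126 listed genes 101 were tested, 48 with a higher and 53 with a lower estimate in LS1, and the median log2 difference was -0.0030, beside 50.7% higher and a median of 0.0054 over all genes. By limma 0 of the 101 passed the adjusted threshold and 13 (12.9%) had an unadjusted p under 0.05, the same share as over all genes. The edgeR test called 0 of them (11 unadjusted) and DESeq2 called 1, *Mcoln3* (14 unadjusted). The 101 genes thus stood at the background share.

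Among 14 tested cation-chloride cotransporter and kinase genes, 8 were higher and 6 lower (median 0.097). The extremes were *Slc12a3*, the thiazide-sensitive sodium-chloride cotransporter, at -0.87 (SE 0.26; 234 ± 29.4 normalized counts in Control, 129 ± 32.6 in LS1, SD, n = 3), and *Cab39*, a scaffold of the kinases that phosphorylate NKCC1, at 0.36 (SE 0.13; 19725 ± 1833 and 25324 ± 1816). Neither passed the adjusted threshold, and neither overlapped between groups. The 4 other tested aquaporins, 3 of them lower (median -0.22), ran from *Aqp7* at -0.31 to *Aqp4* at 0.014, both genes with at most 74.1 normalized counts in a library. Among 12 anion channel genes, 9 were lower (median -0.097). Here the extremes were *Clcn2*, a chloride channel that opens on hyperpolarization and swelling, with 1425 to 1713 normalized counts in Control and 649 to 1243 in LS1 (-0.71, SE 0.23), and *Best1*, a calcium-activated chloride channel, at 0.68 (SE 1.07), where 1 library of LS1 had 76.5 normalized counts and the others 2.86 and 13.1.

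The 16 tested TRP channel genes divided into 8 higher and 8 lower (median 0.0069). *Mcoln3*, a channel of endosomes and lysosomes, had 112, 129 and 165 normalized counts in Control and 376, 191 and 285 in LS1 (1.03, SE 0.30), without overlap, and the calcium channel gene *Trpv5* was at -1.27 (SE 0.58). Both had an adjusted p above the threshold in limma (0.236 and 0.391). Of 20 other mechanically gated channel and PIEZO partner genes, 8 were higher and 12 lower (median -0.017). They ran from the potassium channel gene *Kcnk10* at -0.64 to *Panx3*, a pannexin of hypertrophic chondrocytes that is also in the marker list above, at 0.47 (SE 0.15; 21633 ± 1579 and 30230 ± 4916 normalized counts).

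Of 14 tested sodium-proton and bicarbonate exchanger genes, 4 were higher and 10 lower (median -0.090). *Slc9a2*, a sodium-proton exchanger, was at -0.64 (SE 0.20) and *Slc4a4*, a sodium-bicarbonate cotransporter, at 0.58 (SE 0.19), neither with overlap between groups and neither past the adjusted threshold. Among 11 organic osmolyte and NFAT5 response genes, 10 had a higher estimate (median 0.14), from *Slc6a9*, a glycine transporter, at -0.34 to the heat shock gene *Hspa1a* at 0.79 (SE 0.53), which had 8.07 to 36.6 normalized counts. Of these 11 genes 1 had an unadjusted p under 0.05. The 10 potassium channel genes of volume decrease (6 higher, 4 lower, median 0.026) ran from *Kcnn4*, the calcium-activated channel of red cells and leukocytes, at -0.61 (SE 0.27), to *Kcnma1*, the large-conductance channel, at 0.43 (SE 0.17), both with overlap.

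**Figure D5:**
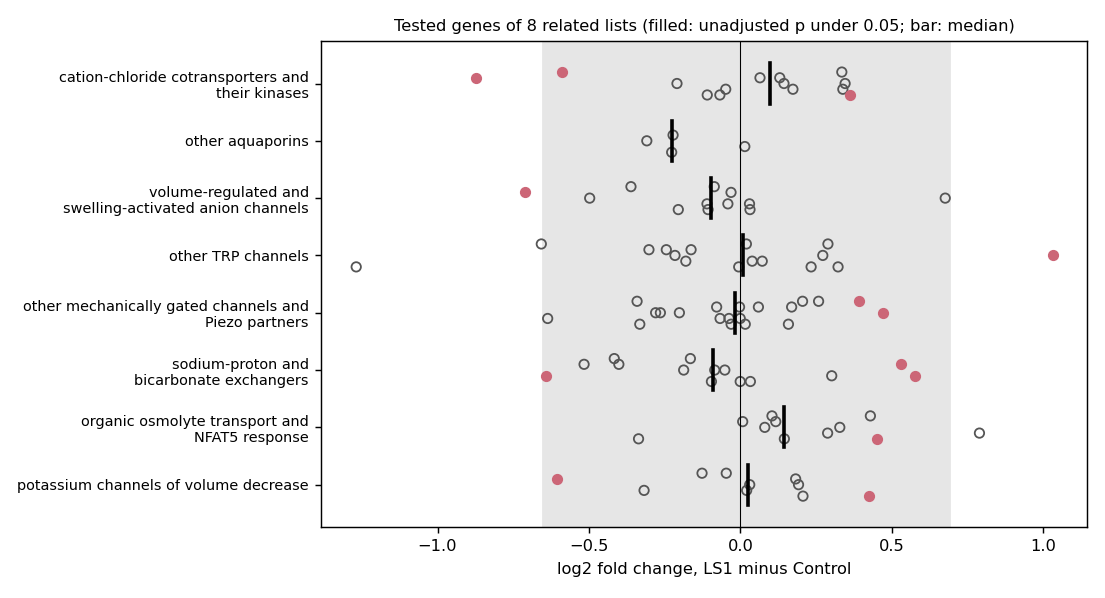
Log2 fold change of LS1 minus Control (x axis) of the tested genes of 8 related lists, with filled points for an unadjusted p under 0.05 in limma, a bar at the median of each list and a grey band from the 5th to the 95th percentile of all genes tested. The medians lie between -0.22 and 0.14, and 13 of 101 points are filled.

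The genes whose pattern over the 6 libraries was closest to that of *Aqp1* and *Slc12a2* were found by the root mean square difference of centred log2 values among 14969 protein-coding genes. For *Aqp1* they were *Rab3il1* (0.037), *Rnf123* (0.041) and *E2f2* (0.043), where the median gene differed by 0.44. For *Slc12a2* they were *Rab2a* (0.014), *Lamp2* (0.046) and *Arf4* (0.048), with a median of 0.39. Their log2 differences were -0.62 to -0.60 in the first set and 0.54 to 0.58 in the second, and none of the 6 passed the adjusted threshold in limma. The likeness is a description over 6 libraries.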

How the data were processed

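Reads of polyadenylated RNA from the 6 libraries were mapped by the authors with HISAT2 2.0.2 to GRCm38, and featureCounts 1.4.6 gave their counts for the genes in Ensembl release 84. DESeq2 was then applied. The deposited table holds 1 signal per gene and library, the read count divided by 1 size factor, and 0 columns were left unused. Reads were recovered by division (100% whole within 0.01). Symbols and coordinates are from GENCODE M21 and matched 98.9% of identifiers. RefSeq promoters on chromosome 18, which holds *Slc12a2* and *Piezo2*, were left out of the promoter set. The other 7 of the 9 members matched a promoter.

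Genes with a mean of at least 20 reads (19308) were fitted on log2(value + 1) by limma 3.58.1 (R 4.3.3, trended and robust moderation) and adjusted by Benjamini-Hochberg at 0.05 over all of them. A fold change on this scale understates that of low genes. edgeR 4.0.16, DESeq2 1.42.0 and the other alternatives gave 17 settings. Ratios of paired members were tested by two-sided exact permutation. On simulated data of this comparison (3 sets, mean of 19052 genes) limma recovered 10.7% of genes changed 1.5-fold and 44.6% of those changed 2-fold, and 8.14% of its calls were unchanged genes, beside 26.0% of the calls of DESeq2 and 9.74% of those of edgeR. The members and lists were chosen with earlier results of these data known. Named beside the members are the gene with the largest difference in each direction of each list, any past the adjusted threshold, and the 3 nearest patterns of *Aqp1* and *Slc12a2*. Paralogs, markers and *Mcoln3* as a DESeq2 call are named outside that rule. *Ahsp* had no match among the 12 erythroid markers. The labels name biological replicates, and replicates of a group differed by more than read sampling (chi-square per degree of freedom 42.9 to 163.8).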

Additional observations from a re-analysis of the deposited data

How the results depend on the processing

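The direction of *Aqp1* and of *Slc12a2* and an unadjusted p under 0.05 held in all 17 alternatives, and the adjusted count among the members was 0 in each. The count of genes called across the whole table was 14, of which 2 were higher in LS1. It was 7 with edgeR (1 higher), 456 with DESeq2 (276 higher), 8 with limma-voom, 45 with no filter on low counts, 9 with a mean of at least 100 reads, 7 without robust moderation and 5 with edgeR without Control replicate 1 (added after the data were seen). It was 14 with TMM scaling and with a pseudocount of 0.5, and 17 with a pseudocount of 5. With 1 library left out it ranged from 5 to 324. The cause was not tested.

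The sign of *Lrrc8d* turned without Control replicate 2 (0.11), Control replicate 3 (0.016), LS1 replicate 2 (0.0061) and LS1 replicate 3 (0.056), and that of *Slc12a4* without LS1 replicate 1 (0.080). With 1 library left out, the log2 difference ranged from -0.13 to 0.11 for *Lrrc8d* and from -0.14 to 0.080 for *Slc12a4*, and the difference of the log2 ratio ranged from -0.047 to 0.20 for *Lrrc8d* to *Lrrc8a* and from -0.30 to 0.58 for *Aqp3* to *Aqp1*, with -0.23 without LS1 replicate 2, and it kept its sign for the other pairs (0.053 to 0.34 for *Piezo2* to *Piezo1*, -0.77 to -0.33 for *Slc12a4* to *Slc12a2*). *Aqp3* enters the test only with no filter (log2 difference -0.45, adjusted p 0.843 in limma).

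The titles share a leading letter between groups, which the labels do not explain. Deviations of same-letter libraries correlated by 0.054, 0.021 and 0.22, beside -0.15 to 0.12 for libraries of different letters. The highest value belonged to a same-letter pair, so these few values do not decide whether the letters mark pairs. They were not taken as pairs in the main fit. With the letter as a replicate block 12 genes were called, 0 of them members, the difference was -0.61 for *Aqp1* (adjusted p 0.162 in limma) and 0.55 for *Slc12a2* (0.103), and the ratio of *Slc12a4* to *Slc12a2* stood at -0.57 with an exact sign-flip p of 0.25, the smallest that 3 pairs give.

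With 3 mice per group, limma recovered few of the simulated 1.5-fold changes, as an average over randomly drawn genes of all levels. The rate for genes at the level of *Aqp1* or *Slc12a2* was not computed. Counts under 20 reads limit *Aqp3*.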
